A study of Mus musculus with 38 samples.

Results

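The RNA that was not on polysomes was compared between two-cell mouse embryos in M-phase and two-cell embryos in interphase. The comparison rests on 6 of the 36 libraries with values, which are 3 of two-cell embryos (replicates A, B and C) and 3 of two-cell embryos in their second mitosis (two-cell M, replicates A, B and C). They were chosen by their column names, which give the stage and the gradient fraction. The non-polysome fraction is written as NP and the polysome fraction as P. All embryos came from ICR females that had been stimulated with PMSG and hCG and mated, and were recovered as zygotes from the oviduct. The two-cell and two-cell M embryos were then grown in KSOM medium. The two-cell embryos were labelled WT, whereas the two-cell M embryos had been treated with nocodazole, a drug that depolymerizes microtubules, and carry a treatment label that reads M-phase of meiosis, although the samples are named as two-cell embryos. By the study's methods cells were treated with cycloheximide, which halts ribosomes on the mRNA, before lysis for the gradient. Nocodazole, M-phase and the time of collection cannot be told apart in these data. The study calls its replicates biological, and the labels do not say whether those of a group came from separate pools of embryos. Each p-value therefore measures only a spread between libraries. In the main limma fit that spread was pooled within the groups of all 36 libraries, and not taken from the 6 alone.

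A messenger RNA that is being read carries several ribosomes and sinks fast in a sucrose gradient, while an mRNA held in a protein particle, or bound to few ribosomal subunits, stays in the light part. In the early embryo this light pool is a store, since oocytes keep many transcripts dormant and recruit or destroy them later. The two-cell stage of the mouse is also when most maternal transcripts are cleared and the embryo's own genome becomes active. At each mitosis transcription stops for a time and the translation of many mRNAs is changed.

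Against two-cell, NP of two-cell M held far more mRNA of the ribosomal proteins, and less of the oocyte's maternal transcripts and of the replication-dependent histones. Rpl41, which encodes the smallest protein of the large ribosomal subunit, went from 263, 271 and 272 FPKM in two-cell to 3019, 3238 and 2433 FPKM in two-cell M. Tcl1, a coactivator of the Akt kinase that the oocyte stores in large amounts, went the other way, from 4619, 3845 and 3227 FPKM to 36.3, 4.37 and 78.0 FPKM. The 2 groups of libraries did not overlap for either gene.

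Ribosomal protein mRNAs are known for a pyrimidine tract at their 5′ end (the TOP motif), through which their translation is switched as a group. The promoter windows of 4 genes are shown because they belong to the ribosomal protein genes with the highest NP levels among those that rose and that hold such a tract in a window around the annotated start. Each window runs from 10 bases before to 20 bases from the RefSeq start (GRCm38.p6), is written 5′ to 3′ on the strand of the gene, and has its longest run of C and T in capitals.
Rps26, chr10:128626487-128626516, - strand: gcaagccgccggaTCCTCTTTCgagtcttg
Rps9, chr7:3704031-3704060, + strand: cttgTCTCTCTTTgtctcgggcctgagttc
Rplp2, chr7:141447641-141447670, + strand: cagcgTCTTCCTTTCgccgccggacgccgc
Fau, chr19:6057937-6057966, + strand: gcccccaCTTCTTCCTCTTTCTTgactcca
The runs are 9, 9, 10 and 16 bases long. The search was for 8 or more C or T in a row on the gene's strand, anywhere in the 30 bases. Of the 80 ribosomal protein genes tested, 60 had a promoter entry and 25 of these (41.7%) held a run. Among the 36 with an entry that rose in NP, 15 (41.7%) held one, so the share was the same as among all ribosomal protein genes tested. Of all 27025 genes with an entry 13.0% held one, as did 10.5% of the 362 other genes with an entry called higher in NP and 12.4% of the 1504 called lower. For a run of A and G of the same length the shares were 15.4% of all genes and 5.0% of the ribosomal protein genes tested. The windows of Rpl41, Rplp0 and Rps15 held no run. These are letters in a window and not a measured transcription start.

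The same RNA can be read from near-identical gene copies, and the entry with the highest mean FPKM in two-cell M was such a copy. Gm10076, annotated as a long non-coding RNA, matches the Rpl41 transcript at 99.5% over 383 aligned bases with 2 mismatches. The 30 bases that begin at the first ATG of the aligned stretch are the same in both. They are printed here, with the ATG in capitals, because they show why reads of the pair cannot be assigned with certainty.
Rpl41: ATGagagcgaagtggcggaagaagagaatg
Gm10076: ATGagagcgaagtggcggaagaagagaatg
Gm10076 stood at 1401, 1353 and 1419.9 FPKM in two-cell and at 15032, 17053 and 10681 FPKM in two-cell M, a log2 fold change of 3.33, close to that of Rpl41. Of the 80 ribosomal protein genes tested, 77 share at least 100 bases at 95% identity or more with another gene, as do 85 of the 152 genes that the naming rule picked, and how reads were split between such copies is not known. Their values are therefore uncertain gene by gene.

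The values are FPKM, which are fragments scaled to transcript length and to the mapped fragments of the library, with 0.01 added by the authors, so that 0.01 is a listed 0. The steps between low values imply about 13240000 to 20780000 fragments for the two-cell libraries and 8491000 to 17140000 for two-cell M. This is a rough figure, because only 42.9 to 49.8% of the low values lay within 0.05 of a whole number of fragments. At that depth 1 fragment on a transcript of 1 kb is worth about 0.0481 to 0.118 FPKM, and differences between values below this are not interpretable. Changes are log2 fold changes from limma on the deposited values, two-cell M relative to two-cell, with a standard error (± SE), and a call means a Benjamini-Hochberg adjusted p under 0.05 together with a change beyond 2-fold. Because the values are shares of a library, less RNA in the whole pool cannot be seen, and fewer cells of a kind or less RNA per cell cannot be told apart.

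Fewer transcripts were detected in NP of two-cell M. Genes above 0.1 FPKM numbered 7135, 6798 and 8037 in two-cell and 5507, 5889 and 5140 in two-cell M. Above 1 FPKM there were 4296, 4214 and 4777 genes against 3357, 3532 and 3278. The groups did not overlap in either count, although the exact two-sided permutation test of 3 against 3 libraries cannot give a p below 0.1, which it gave here. What was detected was also spread less evenly, since the 20 highest genes held 31.1, 27.4 and 29.97% of all FPKM in two-cell and 40.1, 41.1 and 40.3% in two-cell M. Protein-coding genes made up 65.6, 60.4 and 64.5% of the FPKM in two-cell and 41.3, 39.1 and 42.3% in two-cell M. Pseudogenes made up 23.3, 28.4 and 23.2% against 44.0, 46.4 and 40.6%. Copies of ribosomal protein genes accounted for part of this, with 1.82, 2.32 and 1.63% of the FPKM in two-cell and 6.98, 6.60 and 5.06% in two-cell M on pseudogenes named after one. The median level of the genes tested was 0.768, 0.475 and 1.11 FPKM in two-cell and 0.0605, 0.0847 and 0.0394 FPKM in two-cell M. The typical gene of the two-cell M libraries thus lay below 1 fragment per kb.

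Of 7967 genes tested, 2878 (36.1%) were called between two-cell M and two-cell in NP. In two-cell M 651 were higher (8.17%) and 2227 were lower (28.0%), and the median change over all genes was -1.14. Groups without overlap were found for 782 genes with two-cell M above (9.82%) and 1519 with two-cell M below (19.1%). The split follows the scaling. With quantile normalization 940 were called higher and 1081 lower, with the median moved to 0.21. When each library was centred on its own median, 3249 were higher and 558 lower, with the median at 2.51. For this reason the changes of gene groups are also given relative to the median of all genes. By that measure, 15 of 26 gene lists with at least 7 members tested lay above the median and 11 below it. Of these, 14 and 10 kept their side under quantile normalization, and 13 and 9 with 1 added to each FPKM. Centring shifts the changes of all genes by one amount, so it leaves this measure as it is, and values given under centring below show that shift only. The shares called over all genes, 8.17% higher and 28.0% lower, are the background for each count of members in NP at the second mitosis. Where a list had only 1 or 2 members called in a direction, that count went to between 0 and 5 when a library was left out. A further limit is the spread. Fitted on the 6 libraries alone 875 genes were called, 228 higher and 647 lower, and with array weights 1173, 71 higher and 1102 lower.

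**Figure D1:**
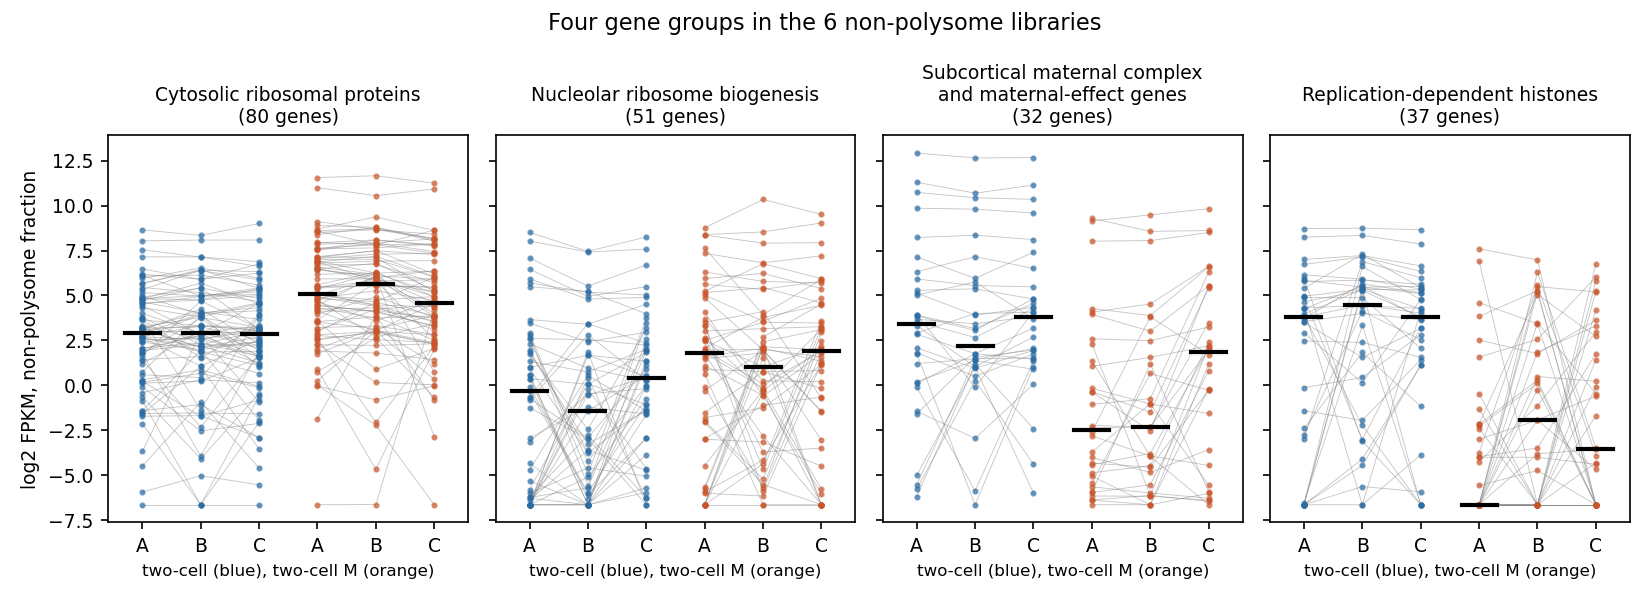
Log2 FPKM of each tested member of 4 gene groups in the 6 NP libraries (A, B and C of two-cell in blue and of two-cell M in orange); points are genes, thin lines join the same gene within a group of libraries and black bars mark the median member. The bars of the ribosomal proteins lie higher in every two-cell M library than in any two-cell library, those of the nucleolar factors too, and those of the histones lie lower, as do those of the maternal-effect genes with replicate C of two-cell M nearest to two-cell.

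The cytosolic ribosomal proteins build the subunits that read mRNA. Of 80 tested, 50 were called higher in NP of two-cell M and 1 lower, against 8.17% and 28.0% of all genes, and their median change was 2.41, which is 3.55 above that of all genes. Their median lay 1.93 above all genes with quantile normalization and 2.11 above with 1 added. In 61 of the 80 the two-cell M libraries all lay above the two-cell libraries, and in 1 they all lay below, against 9.82% and 19.1% of all genes. The median member stood at 7.64, 7.40 and 7.34 FPKM in two-cell and at 33.4, 50.2 and 23.7 FPKM in two-cell M. Their summed share of the library was 1.37, 1.31 and 1.46% in two-cell and 5.15, 4.95 and 4.79% in two-cell M. Taken over protein-coding genes alone the shares were 2.09, 2.17 and 2.26% against 12.5, 12.7 and 11.3%. With any one of the 6 libraries left out, 42 to 50 were called higher, with quantile normalization 48, with centring 78 and in the fit of the 6 libraries alone 38. With array weights only 71 of all genes were called higher, and the number of ribosomal proteins among them is not given here. With a replicate block in the fit of the 6 libraries alone 0 of all genes were called by limma, and so 0 of these.

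Rpl41 (chr10:128548114-128549305, - strand) was the most abundant of them in two-cell M and rose in NP (log2 fold change 3.42 ± 0.51, adjusted p = 5.5e-06). Rplp0, which anchors the stalk that recruits translation factors to the ribosome, rose from 402, 323 and 514 FPKM to 2044, 1504 and 1942 FPKM (log2 fold change 2.16 ± 0.32, adjusted p = 3.7e-06). Rps29, a protein of the small subunit, rose from 72.7, 59.7 and 75.8 FPKM to 416, 660.3 and 392 FPKM (log2 fold change 2.78 ± 0.55, adjusted p = 0.00021). For all of these the lowest two-cell M library lay well above the highest two-cell library. Rplp1, which forms the stalk with Rplp2, stood at 187, 141 and 97.9 FPKM in two-cell and 365, 403 and 339 FPKM in two-cell M (log2 fold change 1.43 ± 0.56, adjusted p = 0.045), but its call held in 1 of the 6 fits that left out a library, with adjusted p of 0.078 without two-cell replicate B, 0.154 without replicate C, and 0.080, 0.094 and 0.066 without two-cell M replicates A, B and C. Rpl35, which the study names, stood at 5.30, 6.64 and 3.26 FPKM in two-cell and 11.4, 8.86 and 14.7 FPKM in two-cell M. Its groups did not overlap, yet the change of 1.23 ± 0.62 did not pass (adjusted p = 0.13). The 1 member called lower, named because its values were seen, was Rps27l, a paralogue of Rps27 known as a p53 target. Rpl3, Rpl5 and Rpl9 did not reach the level needed for the test.

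Among the genes that the naming rule picked were copies of ribosomal protein genes. Gm9843, a copy of Fau, whose product is cut into a ubiquitin-like protein and Rps30, went from 455, 251 and 451 FPKM to 3156, 3004 and 1851 FPKM (log2 fold change 2.80 ± 0.35, adjusted p = 3.6e-07). It was among the 5 protein-coding entries with the highest level in two-cell M. The pseudogene Rps2-ps13 went from 6.18, 0.481 and 0.0101 FPKM to 287, 149 and 249 FPKM (adjusted p = 9.4e-06), so it was near absent in 1 two-cell library and abundant in each two-cell M library.

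Nucleolar factors that make and export ribosomes showed the same direction. Of 51 tested, 14 (27.5%) were called higher and 2 (3.92%) lower, against 8.17% and 28.0% of all genes, and the median change was 1.49, or 2.63 above all genes. That median lay 1.61 above with quantile normalization and 0.90 above with 1 added. The median member stood at 0.80, 0.37 and 1.35 FPKM in two-cell and 3.48, 2.04 and 3.70 FPKM in two-cell M. Imp3, part of the complex that processes the precursor of 18S rRNA, went from 364, 175 and 305 FPKM to 435, 1296 and 728 FPKM (log2 fold change 1.47 ± 0.35, adjusted p = 0.0015). Wdr74, needed for the large subunit and for the blastocyst, went from 3.30, 0.183 and 8.97 FPKM to 37.7, 109 and 61.3 FPKM (log2 fold change 5.17 ± 1.31, adjusted p = 0.0027). Nip7, a late factor of the large subunit that the study names, went from 88.1, 30.9 and 45.0 FPKM to 162, 113 and 147 FPKM (log2 fold change 1.49 ± 0.44, adjusted p = 0.0094), and no call was made without two-cell replicate B (adjusted p = 0.061). Nhp2, of the box H/ACA particles that guide pseudouridylation, went from 136, 45.9 and 104 FPKM to 329, 241 and 245 FPKM (log2 fold change 1.63 ± 0.52, adjusted p = 0.015), also without a call when that replicate was left out (adjusted p = 0.0997). The count of those lower was 5 without two-cell replicate B, and the fit of the 6 libraries alone called 3 higher. Among host genes of snoRNAs, 2 of 10 were higher and 1 lower. One of those higher was Gas5, itself a known TOP transcript, which stood at 2.28, 0.927 and 0.419 FPKM in two-cell and 10.6, 7.16 and 24.6 FPKM in two-cell M (log2 fold change 3.68 ± 0.96, adjusted p = 0.0035).

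Other parts of the translation machinery were called in both directions. Of 39 initiation factors 9 (23.1%) were called higher and 5 (12.8%) lower, with a median 1.75 above that of all genes. This distance was smaller, at 0.9991 above with quantile normalization and 0.51 above with 1 added. The number higher fell to 4 without two-cell replicate A and to 4 without two-cell M replicate A. Eif6, which keeps the large subunit from joining the small one and also acts in its making, rose from 135, 124 and 239.6 FPKM to 759, 569.5 and 675 FPKM (log2 fold change 2.06 ± 0.33, adjusted p = 1.6e-05). Eif1b, related to the start-codon scanning factor Eif1, fell from 76.9, 54.7 and 59.9 FPKM to 17.6, 1.83 and 17.0 FPKM (log2 fold change -2.95 ± 0.66, adjusted p = 0.00081). Of 14 elongation and termination factors 4 (28.6%) were higher and 2 (14.3%) lower, with a median of 0.04. The number higher fell to 2 without two-cell replicate A or B or two-cell M replicate A or B, and the number lower was 4 without two-cell M replicate C. The limma fit of the 6 libraries alone called 0 of these factors higher and 0 lower. Of 73 mitochondrial ribosomal proteins 8 were higher and 16 lower and the median lay 0.04 below that of all genes. With any 1 library left out that median lay 0.22 to 0.49 above that of all genes. The number higher was 5 without two-cell M replicate B. Mrpl34 rose from 93.6, 120.0 and 147 FPKM to 493, 316 and 303 FPKM (log2 fold change 1.61 ± 0.42, adjusted p = 0.0031), while Mrpl53 stood at 73.7, 107 and 58.6 FPKM in two-cell and 0.283, 0.01 and 71.1 FPKM in two-cell M (adjusted p = 0.00047), with two-cell M replicate C inside the range of two-cell. Of 19 aminoacyl-tRNA synthetases 1 was higher and 3 lower, with a median of -0.03. Without two-cell replicate C or two-cell M replicate C 1 was lower, without two-cell M replicate A or B none was higher by limma, and without two-cell replicate B or C 2 were higher. The lists were not tested against each other.

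**Figure D2:**
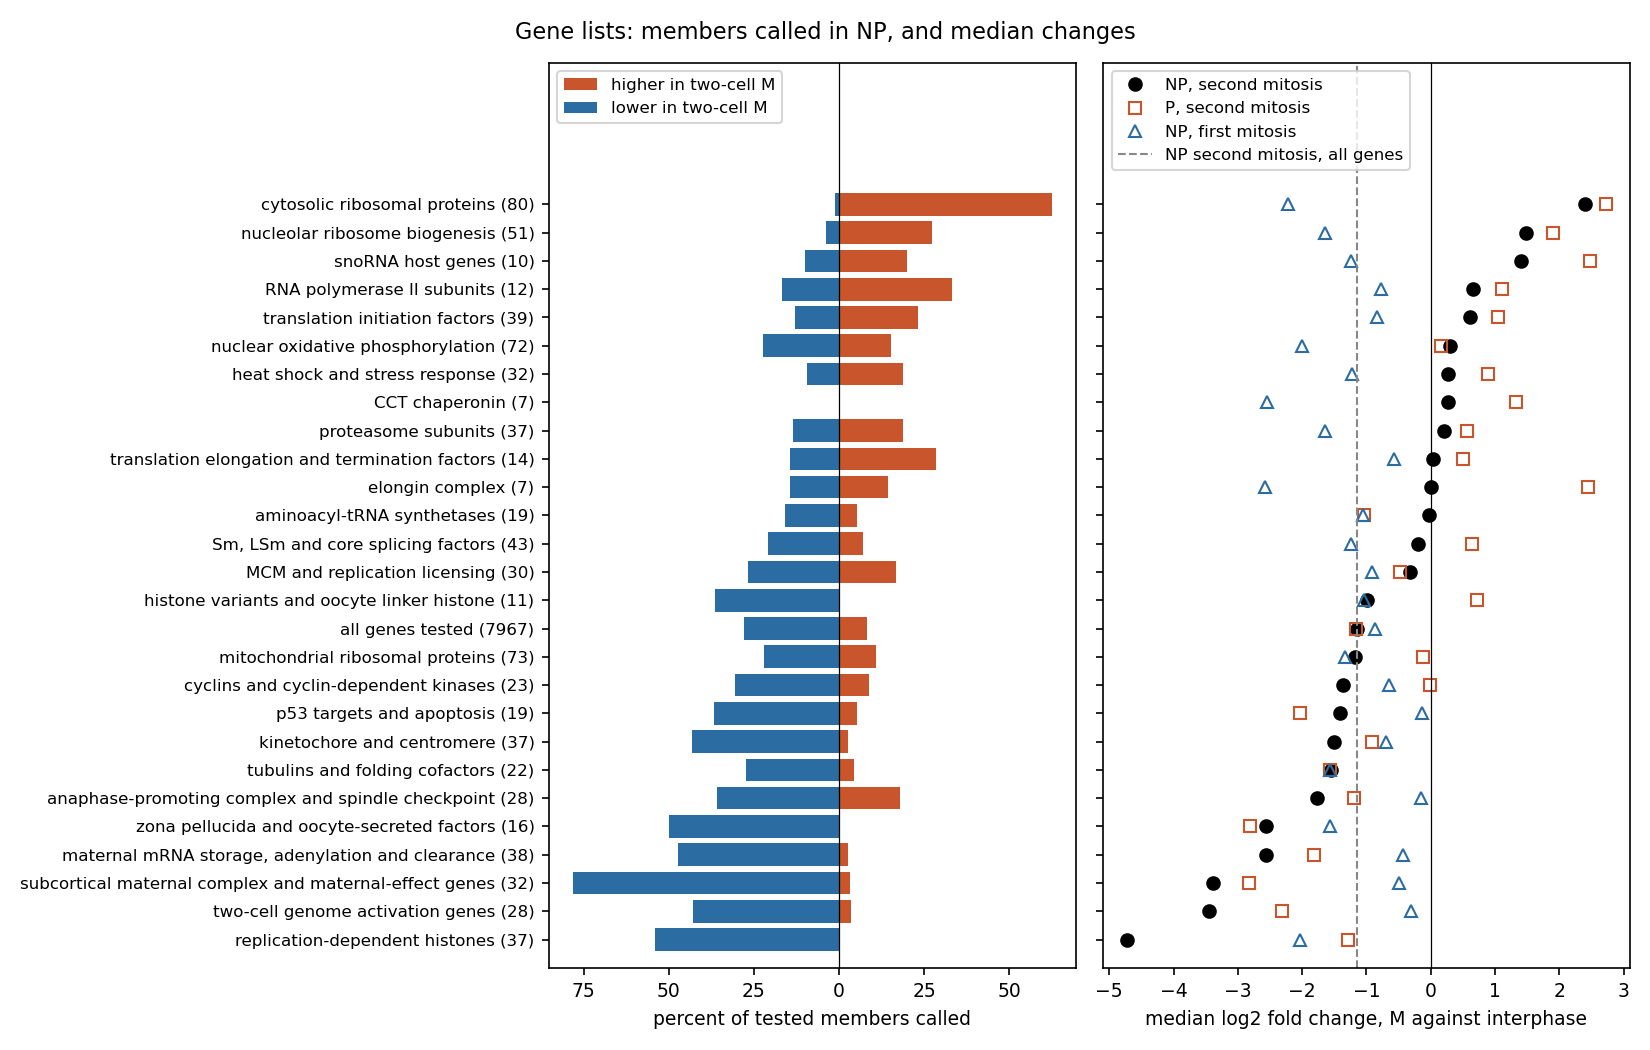
Left, percent of tested members of each gene list (number tested in brackets) called higher (to the right) or lower (to the left) in NP of two-cell M; right, median log2 fold change of each list in NP and P at the second mitosis and in NP at the first mitosis, with the dashed line at -1.14, the NP median of all genes. Cytosolic ribosomal proteins (2.41) are at the top and replication-dependent histones (-4.72) at the bottom. Relative to the dashed line they lie 3.55 above and 3.58 below.

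Among metabolic and degradation genes the changes went both ways. Of 72 nuclear genes of oxidative phosphorylation 11 were higher and 16 lower, counts that went to 7 higher without two-cell replicate C and to 9 lower without two-cell M replicate C. Uqcrq, of complex III, rose from 75.1, 79.7 and 105 FPKM to 317, 443 and 312 FPKM (log2 fold change 2.04 ± 0.48, adjusted p = 0.0014). Cox7a2, of complex IV, rose from 60.8, 52.8 and 64.1 FPKM to 153, 192 and 139 FPKM (log2 fold change 1.44 ± 0.45, adjusted p = 0.013). Cox8a of the same complex fell from 1099, 1052 and 766 FPKM to 215, 424 and 254 FPKM (log2 fold change -1.75 ± 0.40, adjusted p = 0.0011), so subunits of 1 complex moved apart. Of 37 proteasome subunits 7 were higher and 5 lower, with 8 lower without two-cell M replicate B. Psmb1 stood at 1.46, 0.103 and 2.46 FPKM in two-cell and 14.5, 31.5 and 7.12 FPKM in two-cell M (log2 fold change 4.37 ± 1.02, adjusted p = 0.0012) and Psmb3 at 48.5, 67.7 and 38.4 FPKM in two-cell and 20.1, 5.57 and 4.58 FPKM in two-cell M (log2 fold change -2.65 ± 0.52, adjusted p = 0.00019), although both belong to the beta rings of the core particle. None of the 7 CCT chaperonin subunits passed limma's test (2 were lower at an unadjusted p under 0.05), with a median of 0.27 in NP. This depended on single libraries. Without two-cell M replicate C Cct7 was called higher (log2 fold change 2.14, adjusted p = 0.025). Without replicate B 2 subunits were called lower, and without replicate A 1 was, with a median of -1.50.

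Many of the abundant transcripts that fell were maternal ones. The oocyte loads the egg with products that the embryo uses before its own genome acts, among them the subcortical maternal complex, a lattice under the membrane. Of 32 such maternal-effect genes tested, 25 were called lower and 1 higher, and their median change was -3.38, or 2.24 below all genes. With a library left out that median lay 1.80 (without two-cell M replicate A) to 4.29 (without replicate C) below all genes. The lower calls numbered 17 to 26 with a library left out, 15 with quantile normalization, 11 in the fit of the 6 libraries alone and 7 with centring. Their share of all FPKM was 8.81, 6.86 and 7.97% in two-cell and 0.646, 0.581 and 1.03% in two-cell M, and the median member stood at 10.8, 4.86 and 13.7 FPKM against 0.179, 0.199 and 3.61 FPKM. Two-cell M replicate C thus kept the most of the median member.

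Omt2b (chr9:78327589-78329620, + strand), an oocyte-specific transcript, was among the 5 highest protein-coding genes of two-cell at 7756, 6428 and 6527 FPKM, and was listed at 564, 716 and 909 FPKM in two-cell M (log2 fold change -3.26 ± 0.39, adjusted p = 1.2e-07). Omt2a beside it went from 2519, 1651 and 2263 FPKM to 259.9, 265 and 363 FPKM (log2 fold change -2.85 ± 0.39, adjusted p = 1.4e-06). Bcl2l10, an oocyte protein related to the regulators of apoptosis, went from 1705, 1383 and 1304 FPKM to 16.8, 23.1 and 98.5 FPKM (log2 fold change -5.43 ± 0.58, adjusted p = 1.8e-08). In each the highest two-cell M library lay far below the lowest two-cell library. Zbed3, a member of the maternal complex, went from 925, 892 and 769 FPKM to 19.2, 14.8 and 96.6 FPKM (log2 fold change -4.83 ± 0.42, adjusted p = 4.3e-10). Ooep, an RNA-binding-like protein of the same complex that the study names, went from 142, 61.8 and 170.3 FPKM to 15.5, 8.07 and 46.3 FPKM (log2 fold change -2.67 ± 0.42, adjusted p = 9.8e-06). Under centring on the library median Omt2b, Omt2a and Ooep had positive values (0.39, 0.80 and 0.98). The 1 member called higher, Trim28, a corepressor that protects imprints, was picked out after its values were seen.

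Tcl1 and 2 of its relatives fell. Tcl1 (chr12:105216750-105222793, - strand) had a fitted log2 fold change of -7.38 ± 0.56 (adjusted p = 3.1e-11). Its relative Tcl1b4 stood at 748, 654 and 474 FPKM in two-cell and 0.677, 0.337 and 0.0796 FPKM in two-cell M (adjusted p = 3.4e-12) and Tcl1b5 at 179, 131 and 171 FPKM in two-cell and 0.181, 0.108 and 0.0467 FPKM in two-cell M (adjusted p = 4e-09). All 3 lie on chromosome 12. Tcl1b4 and Tcl1b5 ended below 1 FPKM in every two-cell M library, where a fitted fold depends on the offset. Sebox, a homeobox factor of the oocyte needed for the two-cell embryo, stood at 326, 216 and 409 FPKM in two-cell and 0.461, 0.226 and 0.0457 FPKM in two-cell M (adjusted p = 1.1e-14).

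Factors that store, adenylate or clear maternal mRNA were called lower in 18 of 38 and higher in 1 (median 1.42 below all genes). That median lay 0.56 below with quantile normalization and 0.28 below with 1 added. With a library left out it lay 0.77 (without two-cell M replicate A) to 2.26 (without replicate C) below. The lower calls numbered 14 to 20 with a library left out, 5 with quantile normalization, in which 4 were higher, 4 in the fit of the 6 libraries alone and 2 with centring, in which 12 were higher. Btg4, the adaptor that brings the CCR4-NOT deadenylase to maternal mRNA, went from 8.96, 36.6 and 26.3 FPKM to 0.815, 1.86 and 1.66 FPKM (log2 fold change -3.91 ± 0.55, adjusted p = 1.9e-06). Pabpn1l, an oocyte poly(A)-binding protein that works with it, went from 17.2, 12.8 and 26.4 FPKM to 0.235, 0.406 and 0.296 FPKM (log2 fold change -5.88 ± 0.89, adjusted p = 6.2e-06). Ybx2, which packs stored mRNA, stood at 9.16, 23.7 and 5.59 FPKM in two-cell and 0.0241, 0.0303 and 8.64 FPKM in two-cell M (adjusted p = 0.00032), with two-cell M replicate C in the range of two-cell and replicates A and B near the floor. Of 16 zona pellucida and secreted factors 8 were lower and none higher by limma, nor was any higher at an unadjusted p under 0.05 (0 of 16). Bmp15, an oocyte growth factor, stood at 71.8, 219 and 171 FPKM in two-cell and 3.17, 0.206 and 0.186 FPKM in two-cell M (adjusted p = 1.4e-10). Izumo1r, the egg's receptor for sperm, stood at 29.96, 22.4 and 18.1 FPKM in two-cell and 0.0552, 0.0425 and 0.0422 FPKM in two-cell M (adjusted p = 2.4e-11), with all its two-cell M libraries under 1 fragment per kb.

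Not all oocyte transcripts fell. Of 12 markers of the oocyte and egg used to check the label, 8 were called lower, and Dppa3, which guards the maternal genome from demethylation, was not, at 299, 327 and 276 FPKM in two-cell and 627, 378 and 392 FPKM in two-cell M. The sum of the 12 markers was 750.4, 804 and 817 FPKM against 665, 395 and 541 FPKM. Of 15 markers of the two-cell embryo, 6 were tested and 3 called lower (1 without two-cell replicate C, 4 without two-cell M replicate A, 2 without any other library, and 0 in the fit of the 6 libraries alone), with a sum of 767, 464 and 509 FPKM in two-cell and 558, 97.2 and 394 FPKM in two-cell M. Of the 6 two-cell markers tested, 6, 6 and 6 were above 0.1 FPKM in the two-cell libraries and 5, 4 and 3 in two-cell M. Their median was 25.2, 19.9 and 35.5 FPKM in two-cell and 22.8, 0.201 and 1.35 FPKM in two-cell M. These markers thus show the labelled stage less clearly in two-cell M, most of all in replicates B and C. Of 16 cumulus and granulosa cell markers in the table none reached the level for testing, and Amh, Fshr, Has2, Cyp19a1, Star, Lhcgr and Nr5a1 were listed at 0 in all 6 libraries. Their sum was 13.2, 69.7 and 8.28 FPKM in two-cell and 6.17, 13.6 and 19.1 FPKM in two-cell M, so the groups overlapped. Of the 6 blood markers Hba-a1 alone was tested and was called lower at 159.5, 97.3 and 129 FPKM in two-cell and 51.7, 0.01 and 49.9 FPKM in two-cell M (adjusted p = 0.033), while Hbb-bs and Hbb-bt were listed at 0 throughout. The call of Hba-a1 was lost without two-cell M replicate B (adjusted p = 0.51) and without any 1 of the 3 two-cell libraries (0.055 to 0.075). Sums of the sperm markers were 1.65, 0.192 and 0.866 FPKM in two-cell and below 0.01 FPKM in each two-cell M library, with Tnp2, Odf1, Akap4 and Izumo1 listed at 0 in all 6. Of the 2 tested, Odf2 was called lower at 1.07, 0.202 and 0.0236 FPKM in two-cell and 0.0119, 0.0128 and 0.0127 FPKM in two-cell M (log2 fold change -3.79 ± 1.06, adjusted p = 0.0061), and not without two-cell replicate A (adjusted p = 0.073). Of 5 tested markers of later embryos and 1 of oviduct epithelium none was called by limma (1 was lower at an unadjusted p under 0.05), and their sums overlapped between the groups, at 13.1, 42.2 and 16.8 FPKM against 17.8, 6.09 and 12.1 FPKM for later embryos and 0.0258, 4.55 and 0.147 FPKM against 5.81, 2.42 and 7.18 FPKM for oviduct. The part of these cells in the results was not tested.

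The next list was written for genome activation at the two-cell stage, and some members, such as Obox5 and Rfpl4, are also oocyte genes. Of 63 two-cell genome activation genes 28 were tested, 12 (42.9%) were called lower and 1 (3.57%) higher, with a median 2.31 below all genes. That distance rested in part on two-cell M replicate B, without which it was 0.23 below. It was 3.28 below without two-cell M replicate A and 1.26 below with 1 added. The lower calls went to 8 both without two-cell replicate C and with quantile normalization, to 5 with centring (9 higher) and to 4 in the fit of the 6 libraries alone. Obox5, an oocyte and two-cell homeobox gene, went from 151, 216 and 164 FPKM to 8.36, 0.229 and 20.4 FPKM (log2 fold change -5.68 ± 1.01, adjusted p = 5.9e-05). Rfpl4, an oocyte RING-finger protein, went from 64.9, 109 and 63.8 FPKM to 0.456, 3.61 and 1.30 FPKM (log2 fold change -5.90 ± 0.56, adjusted p = 2.7e-09). Pou5f1, the pluripotency factor Oct4, stood at 79.7, 97.3 and 48.6 FPKM in two-cell and 0.234, 21.04 and 0.0468 FPKM in two-cell M (log2 fold change -6.88 ± 1.23, adjusted p = 6e-05), a wide spread within two-cell M, since replicate B kept part of the transcript. Tcstv1, a gene of the two-cell burst of transcription, stood at 288, 145 and 189 FPKM in two-cell and 90.6, 0.0945 and 117 FPKM in two-cell M (log2 fold change -4.31 ± 1.53, adjusted p = 0.029). Its call was lost without two-cell replicate A (adjusted p = 0.076) or C (0.059) and without two-cell M replicate B (0.48). Zscan4d, of the same burst, stood at 42.3, 18.6 and 34.8 FPKM in two-cell and 0.0460, 10.7 and 0.01 FPKM in two-cell M (log2 fold change -7.47 ± 2.47, adjusted p = 0.019), with no call without two-cell M replicate A (adjusted p = 0.073) or C (0.12). Zscan4c stood at 4.12, 21.2 and 12.3 FPKM in two-cell and 19.5, 0.211 and 0.01 FPKM in two-cell M (log2 fold change -4.89 ± 1.86, adjusted p = 0.04), and its groups overlapped. The call of Zscan4c held in 2 of 6 fits that left out a library. The 1 member called higher, named after its values were seen, was Dppa4.

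**Figure D3:**
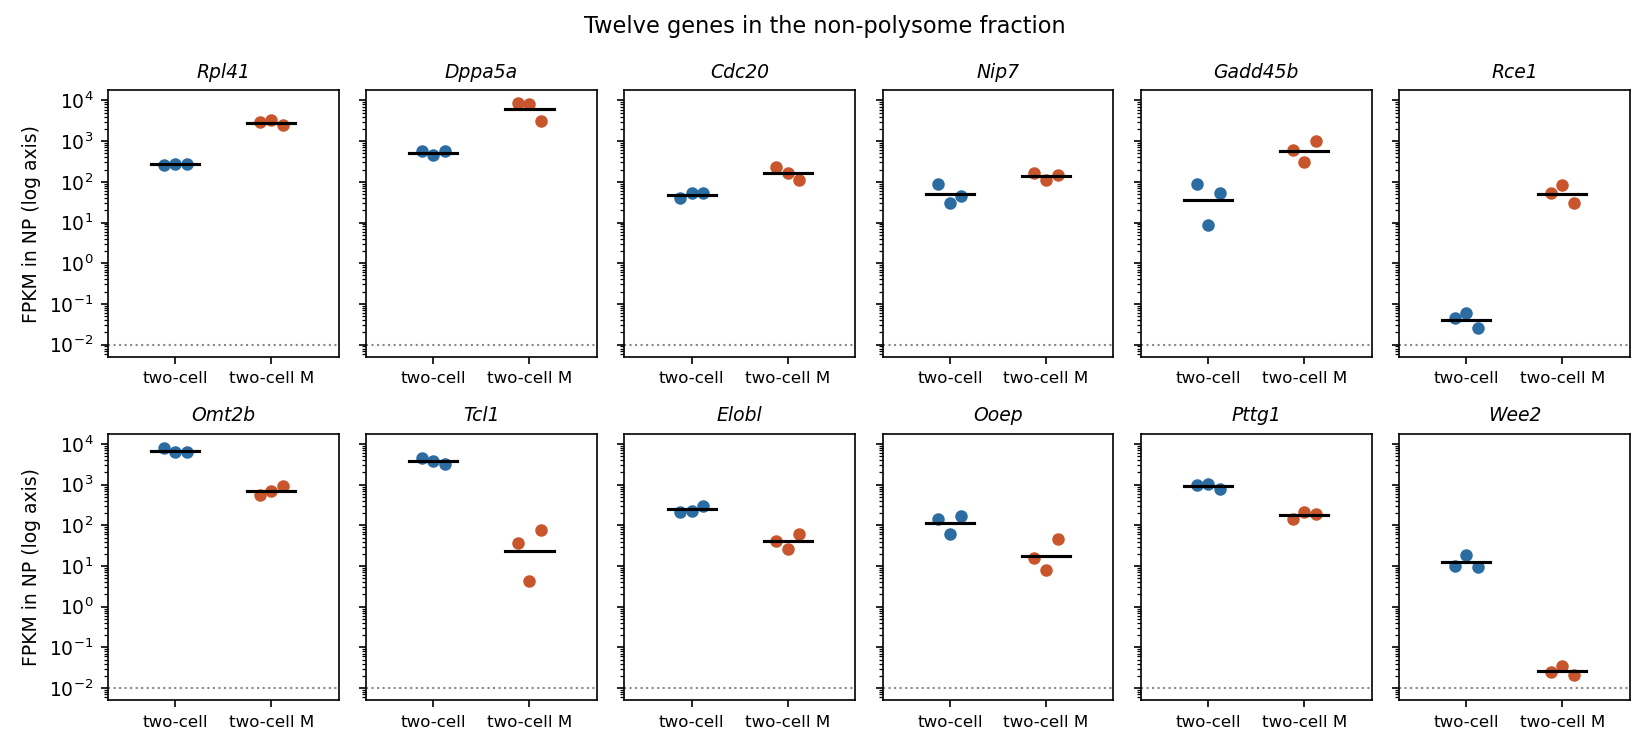
FPKM on a log axis of 12 genes in each NP library; points are the libraries A, B and C of two-cell and two-cell M, bars mark the geometric mean and the dotted line the floor of 0.01. Rpl41 lies at 263 to 272 FPKM in two-cell and 2433 to 3238 in two-cell M, and Tcl1 at 3227 to 4619 against 4.37 to 78.0.

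Replication-dependent histones are made in S phase, and their mRNAs end in a stem-loop in place of a poly(A) tail. Of 65 listed, 37 were tested, 20 were called lower and none higher by limma (0 also at an unadjusted p under 0.05), and the median change was -4.72, or 3.58 below all genes. The list's median lay 3.13 below all genes with quantile normalization and 2.24 below with 1 added. The median member stood at 14.0, 22.0 and 14.1 FPKM in two-cell and at 0.01, 0.26 and 0.084 FPKM in two-cell M. Their summed share was 1.05, 1.28 and 0.97% of the library against 0.161, 0.217 and 0.196%. The count rested in part on two-cell M replicate A, without which 11 were called lower, and was 13 with quantile normalization, 4 with centring and 2 in the fit of the 6 libraries alone. Hist1h1a, a linker histone, stood at 304, 324 and 233 FPKM in two-cell and 0.01, 78.7 and 0.0888 FPKM in two-cell M (adjusted p = 4.8e-05). Hist1h4c stood at 106, 141 and 81.1 FPKM in two-cell and 24.2, 10.7 and 0.01 FPKM in two-cell M (adjusted p = 0.0018) and Hist2h2aa1 at 423, 428 and 404 FPKM in two-cell and 120.0, 0.01 and 2.70 FPKM in two-cell M (adjusted p = 0.00014). In each of these, the two-cell libraries lay close together while those of two-cell M ran from the floor upward. Hist1h2ap, a replication-dependent H2A gene that the list did not hold and 1 of the 5 highest protein-coding genes in both groups, stood at 6116, 6765 and 7357 FPKM in two-cell and 1830.0, 2286 and 4124 FPKM in two-cell M (log2 fold change -1.38 ± 0.53, adjusted p = 0.04). Its call held in 1 of 6 fits that left out a library, namely the one without two-cell M replicate C, with adjusted p of 0.065 to 0.144 in the others. Histone genes have many near-identical copies, so levels of single members are uncertain.

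Other histones and related proteins do not depend on S phase. Of 11 variants and linkers 4 (36.4%, against 28.0% of all genes) were called lower and none higher by limma (3 at an unadjusted p under 0.05), with 2 lower without two-cell replicate C. H1foo, the oocyte linker histone, fell from 79.7, 55.5 and 41.8 FPKM to 2.78, 2.01 and 16.6 FPKM (log2 fold change -3.65 ± 0.68, adjusted p = 0.0001), a change that went to 0.0016 under centring. H2afz, the variant H2A.Z that the study names, stood at 288, 349.6 and 259 FPKM in two-cell and 619.8, 823 and 501 FPKM in two-cell M. The groups did not overlap and the change of 1.10 ± 0.54 did not pass (adjusted p = 0.11). Cenpa, the centromeric histone H3 also named by the study, stood at 60.3, 11.2 and 63.9 FPKM in two-cell and 85.3, 80.3 and 78.0 FPKM in two-cell M (log2 fold change 1.21 ± 0.54, adjusted p = 0.085), with 1 low two-cell library. Cenpa was called higher without two-cell replicate A (log2 fold change 1.60, adjusted p = 0.039) or C (1.64, adjusted p = 0.033).

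Genes of the cell cycle were called in both directions. Cdc20, the activator of the anaphase-promoting complex, rose from 39.0, 53.8 and 51.9 FPKM to 237, 167 and 109 FPKM (log2 fold change 1.77 ± 0.36, adjusted p = 0.0003), and no library overlapped. Pttg1 (securin), a substrate of that complex, fell from 991, 1012 and 804 FPKM to 145, 218 and 194 FPKM (log2 fold change -2.35 ± 0.37, adjusted p = 1e-05). Over the complex and the spindle checkpoint 5 of 28 were called higher (17.9%) and 10 lower (35.7%), against 8.17% and 28.0% of all genes. Mad2l1, the checkpoint protein that holds Cdc20, fell from 27.6, 38.0 and 28.0 FPKM to 0.09998, 1.59 and 4.67 FPKM (log2 fold change -5.09 ± 0.83, adjusted p = 1.6e-05). Of 23 cyclins, kinases and their regulators 2 were higher (8.70%) and 7 lower (30.4%), shares near those of all genes. The number higher was 0 without two-cell M replicate C and 1 without two-cell replicate A or C. Cks1b, which binds cyclin-dependent kinases, fell from 533, 421 and 454 FPKM to 82.9, 62.2 and 55.5 FPKM (log2 fold change -2.82 ± 0.36, adjusted p = 5e-07). Wee2, the oocyte kinase that restrains Cdk1, stood at 10.3, 19.0 and 9.69 FPKM in two-cell and 0.0248, 0.0355 and 0.0205 FPKM in two-cell M (adjusted p = 8.8e-10), and Cdc25b, the phosphatase that opposes it, at 9.42, 25.2 and 16.4 FPKM in two-cell and 0.0171, 0.0304 and 0.0706 FPKM in two-cell M (adjusted p = 1.1e-05). Both were at or under about 1 fragment per kb in each two-cell M library. The call of Cdc20 was lost with array weights and in the fit of the 6 libraries with a replicate block. With the shift that centring adds to every gene, Pttg1 was at 1.31 and Cks1b at 0.83.

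Of 37 kinetochore and centromere genes 16 were lower and 1 higher (Incenp, named after its values were seen). The median, -1.51, was 0.36 below that of all genes but 0.12 above it both with quantile normalization and with 1 added. Birc5, which like Incenp belongs to the chromosomal passenger complex, fell from 68.3, 75.7 and 74.6 FPKM to 9.89, 22.8 and 48.0 FPKM (log2 fold change -1.72 ± 0.36, adjusted p = 0.00044), and was at 1.94 under centring. Plk1, the polo kinase of mitosis, stood at 18.7, 1.16 and 21.2 FPKM in two-cell and 0.0335, 0.213 and 0.0436 FPKM in two-cell M (adjusted p = 4.2e-08). Of 22 tubulins and their cofactors 6 were lower (27.3%) and 1 higher (4.55%), near the 28.0% and 8.17% of all genes. Tubg2, a gamma-tubulin, fell from 76.5, 77.1 and 96.0 FPKM to 3.62, 5.75 and 8.13 FPKM (log2 fold change -3.90 ± 0.47, adjusted p = 1.4e-07). Tubb2a, a beta-tubulin, stood at 61.3, 67.0 and 48.4 FPKM in two-cell and 0.0319, 1.42 and 0.135 FPKM in two-cell M (adjusted p = 1.5e-09). Nocodazole acts on tubulin itself, and in these libraries the drug cannot be told apart from M-phase. Mos, the kinase that holds the egg in metaphase, stood at 53.8, 0.0621 and 7.12 FPKM in two-cell and 2.21, 2.53 and 0.775 FPKM in two-cell M and did not pass (log2 fold change -0.82 ± 1.44, adjusted p = 0.71), with a wide spread in two-cell and a positive sign without two-cell replicate A (1.29). Without two-cell replicate B Mos was called lower (log2 fold change -3.58, adjusted p = 0.015).

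Genes that respond to stress were called in both directions. Gadd45b, of the Gadd45 family of stress sensors, rose from 90.4, 8.76 and 53.9 FPKM to 595, 309 and 1022 FPKM (log2 fold change 4.03 ± 0.85, adjusted p = 0.00048). Gadd45g stood at 4.13, 0.01 and 5.49 FPKM in two-cell and 115, 108 and 680.3 FPKM in two-cell M (log2 fold change 8.38 ± 2.62, adjusted p = 0.014), with no call without two-cell replicate B (adjusted p = 0.12) or two-cell M replicate C (0.051). Over 32 heat shock and stress genes 6 were higher and 3 lower, which became 3 higher without two-cell M replicate C and 6 lower without replicate B. Hspb1, a small heat shock protein, fell from 101, 102 and 91.0 FPKM to 6.28, 0.0816 and 2.56 FPKM (adjusted p = 2.9e-06). Its pseudogene copy Hsp25-ps1 went from 157, 157 and 142 FPKM to a listed 0 in every two-cell M library (adjusted p = 1.2e-16). Of 19 p53 targets and apoptosis genes 7 were lower (36.8%) and 1 higher (5.26%), against 28.0% and 8.17% of all genes. Subunits of RNA polymerase II went both ways, with 4 of 12 higher (2 without two-cell M replicate B) and 2 lower. Polr2e, shared by all 3 nuclear polymerases, rose from 98.5, 129 and 77.0 FPKM to 272, 313 and 328 FPKM (log2 fold change 1.61 ± 0.43, adjusted p = 0.004). Polr2c fell from 41.6, 35.5 and 22.3 FPKM to 8.29, 9.68 and 7.84 FPKM (log2 fold change -1.90 ± 0.40, adjusted p = 0.0005), a sign that turned under centring (1.75). Polr2i, named by the study, stood at 51.8, 14.2 and 28.7 FPKM in two-cell and 85.3, 69.1 and 25.1 FPKM in two-cell M and did not pass (log2 fold change 0.94 ± 0.54, adjusted p = 0.19). Without two-cell M replicate C Polr2i was called higher (log2 fold change 1.47, adjusted p = 0.041).

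In the elongin complex Eloc and Elobl changed in opposite directions. Eloc, the adaptor elongin C, rose from 18.9, 13.0 and 13.4 FPKM to 87.7, 88.4 and 75.2 FPKM (log2 fold change 2.49 ± 0.46, adjusted p = 8.9e-05). Elob, elongin B, stood at 27.9, 38.6 and 35.1 FPKM in two-cell and 92.6, 102 and 81.8 FPKM in two-cell M, without overlap but short of the threshold (log2 fold change 1.45 ± 0.69, adjusted p = 0.11). Elobl, an Elob-like gene that the study names, fell from 219, 228 and 298 FPKM to 40.4, 25.9 and 61.9 FPKM (log2 fold change -2.61 ± 0.32, adjusted p = 1.8e-07), although centring gave 1.04. BC051665 was listed at 0 in all 6 libraries and was not tested.

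Dppa5a (chr9:78367052-78368177, - strand), an RNA-binding protein of pluripotent cells, had the highest level of any protein-coding gene in two-cell M. It stood at 560.1, 449 and 574 FPKM in two-cell and 8876, 8156 and 3206 FPKM in two-cell M (log2 fold change 3.55 ± 0.42, adjusted p = 1.1e-07). Its lowest two-cell M library lay far above its highest two-cell library. Some single genes went from near the floor to a high level. Rce1 (chr19:4622591-4625641, - strand), the protease that trims farnesylated proteins such as Ras, stood at 0.0443, 0.0595 and 0.0258 FPKM in two-cell and 52.9, 81.6 and 29.7 FPKM in two-cell M (adjusted p = 6.2e-13), that is at about 1 fragment per kb or less in each two-cell library. Exosc4, a ring subunit of the RNA exosome, stood at 0.0387, 0.0330 and 0.0393 FPKM in two-cell and 28.1, 20.04 and 17.1 FPKM in two-cell M (adjusted p = 2.7e-06). Nop9, a nucleolar factor, stood at 0.01, 0.01 and 0.0149 FPKM in two-cell and 3.75, 11.9 and 14.7 FPKM in two-cell M (adjusted p = 4.1e-06). Rnf113a1, related to a splicing factor, was listed at 0 in two-cell and stood at 12.8, 17.9 and 96.4 FPKM in two-cell M (adjusted p = 0.00029). Spint1, a protease inhibitor, stood at 0.160, 0.0224 and 0.01 FPKM in two-cell and 8.11, 8.34 and 14.9 FPKM in two-cell M (adjusted p = 1.8e-05). These were picked for the size of their change, and fitted folds from such low values depend on the offset.

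Others were measured in every two-cell library and were at or near the floor in two-cell M. Nmb, a neuropeptide, went from 26.9, 33.0 and 15.0 FPKM to a listed 0 in all 3 libraries (adjusted p = 0.00023). Hcfc1r1, a regulator of the host cell factor Hcfc1, went from 14.4, 30.9 and 22.5 FPKM to a listed 0 (adjusted p = 3.9e-15). Nme3, a nucleoside diphosphate kinase, went from 22.9, 22.5 and 11.2 FPKM to a listed 0 (adjusted p = 4.6e-07). The pseudogene Rab11b-ps2 went from 23.6, 28.8 and 26.5 FPKM to a listed 0 in 2 libraries of two-cell M and a value that rounds to it in the third (adjusted p = 1e-11). Crip2, a LIM-domain protein, stood at 22.2, 25.6 and 23.2 FPKM in two-cell and 0.0411, 0.01 and 0.01 FPKM in two-cell M (adjusted p = 5.5e-15). The homeobox gene Gbx2 stood at 20.8, 57.8 and 28.0 FPKM in two-cell and 0.01, 0.01 and 0.0281 FPKM in two-cell M (adjusted p = 3.3e-08).

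By class of gene, 501 of 6400 protein-coding genes (7.83%) were called higher and 1846 (28.8%) lower, with a median of -1.27. Of 1026 pseudogenes 114 (11.1%) were higher and 196 (19.1%) lower, with a median of 0.04. Of 498 long non-coding RNA genes 32 (6.43%) were higher and 177 (35.5%) lower, with a median of -2.00. Of 31 small non-coding and rRNA genes 4 were higher and 2 lower. Many pseudogenes are copies of ribosomal protein genes, so their values are not independent of those above.

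The same mitosis was then set beside the RNA that was on polysomes. In P 648 genes (8.13%) were called higher and 2242 (28.1%) lower, with a median of -1.17, and this split also follows the scaling, with 1482 higher and 1490 lower under quantile normalization and 1448 and 1213 under centring. Of the 651 higher in NP, 315 (48.4%) were higher in P, which is 48.6% of those in P. Of the 2227 lower in NP, 1331 (59.8%) were lower in P, 59.4% of those in P. Only 10 of those higher in NP were lower in P and 12 went from lower in NP to higher in P. The difference between the changes was tested directly, and 458 genes (5.75%) differed, 203 with the larger value in NP and 255 in P. With quantile normalization these were 197 and 144, and with centring 1358 and 105, so the split turned. NP and P are parts of 1 gradient. A fit of only the libraries compared, with the gradient (the stage and replicate letter) as replicate block, was chosen after seeing the data. In it limma called 0 genes (695 at an unadjusted p under 0.05). The differences of single genes given here come from the main fit, without that block. Without a block the count was 109 when fitted on the libraries compared alone and 75 with array weights, so its size depends on the fit.

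Several of the groups above had medians of the same sign in both fractions. Cytosolic ribosomal proteins had a median of 2.41 in NP and 2.72 in P, with 55 of 80 called higher in P, against 8.13% of all genes. For Rpl41 P stood at 60.3, 87.0 and 102 FPKM in two-cell and 1694, 1152 and 729 FPKM in two-cell M (log2 fold change 3.79 ± 0.51, adjusted p = 2.4e-06), and the 2 changes were not shown to differ (difference -0.37 ± 0.73, adjusted p = 0.85). Nucleolar factors had medians of 1.49 and 1.89, and maternal-effect genes -3.38 and -2.83. Of the 32 maternal-effect genes 20 were called lower in P, against 28.1% of all genes. The replication-dependent histones had a median of -4.72 in NP and -1.28 in P, where the median of all genes was -1.17. In P 7 of 37 were called lower and 1 higher, against 28.1% and 8.13% of all genes. The difference between the fractions was called for 1 of the 37, against 5.75% of all genes. For Hist1h4c P stood at 27.2, 68.4 and 37.1 FPKM in two-cell and 62.9, 9.80 and 6.75 FPKM in two-cell M, and the difference did not pass (difference -4.93 ± 2.15, adjusted p = 0.19). Rplp0 in P stood at 123, 217 and 130.1 FPKM in two-cell and 223, 225 and 518 FPKM in two-cell M (log2 fold change 0.97 ± 0.32, adjusted p = 0.018), and its changes were not shown to differ (difference 1.19 ± 0.45, adjusted p = 0.12).

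Among the named genes with a tested difference, one group often had little signal. Rce1 stood in P at 5.25, 6.56 and 3.01 FPKM in two-cell and 2.99, 0.601 and 6.21 FPKM in two-cell M and was not called there (log2 fold change -1.07 ± 0.65, adjusted p = 0.2), while it rose in NP, and the difference passed (difference 11.34 ± 0.92, adjusted p = 1.4e-09). Sebox fell in both fractions and more in NP (difference -6.66 ± 0.80, adjusted p = 1.6e-06), with P at 358, 625 and 493 FPKM in two-cell and 35.99, 11.1 and 46.9 FPKM in two-cell M. Plk1 in P stood at 14.9, 16.3 and 21.4 FPKM in two-cell and 4.23, 13.2 and 19.8 FPKM in two-cell M and was not called there (log2 fold change -0.75 ± 0.76, adjusted p = 0.47), while it fell in NP, and the difference passed (difference -6.09 ± 1.08, adjusted p = 0.0005). Nobox, a transcription factor of the oocyte, stood in NP at 31.0, 3.46 and 24.4 FPKM in two-cell and 0.0239, 0.01 and 0.0298 FPKM in two-cell M and in P at 56.1, 48.3 and 51.4 FPKM in two-cell and 7.03, 3.03 and 13.4 FPKM in two-cell M (difference -6.51 ± 0.99, adjusted p = 7.4e-05). Pcna, the sliding clamp of DNA replication, stood in NP at 7.22, 5.56 and 8.89 FPKM in two-cell and 0.01, 1.33 and 0.01 FPKM in two-cell M and in P at 1.42, 1.08 and 0.590 FPKM in two-cell and 0.455, 1.37 and 1.86 FPKM in two-cell M (difference -7.24 ± 1.54, adjusted p = 0.0036). Wee2 stood in P at 25.5, 7.56 and 11.4 FPKM in two-cell and 1.05, 0.0626 and 2.24 FPKM in two-cell M (difference -4.26 ± 1.14, adjusted p = 0.022).

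**Figure D4:**
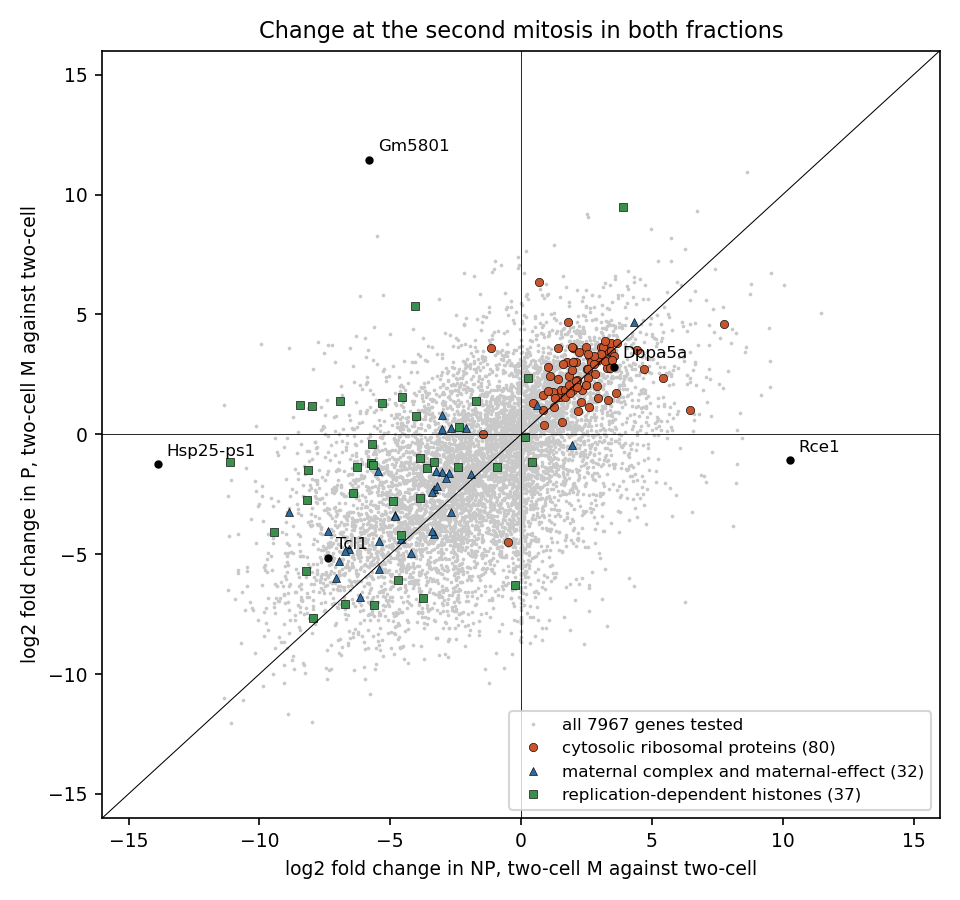
Log2 fold change of two-cell M against two-cell for the 7967 genes tested, NP on the horizontal and P on the vertical axis, with 3 gene groups marked and the line of equal change drawn. Cytosolic ribosomal proteins lie along the line at the upper right, maternal-effect genes lie along it at the lower left, and many replication-dependent histones lie left of it; Rce1 (10.27 in NP) and Gm5801 (-5.80 in NP) are far from it.

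The first mitosis, zygote M against zygote in NP, gave the other comparison. There 84 genes (1.05%) were called higher and 746 (9.36%) lower, with a median of -0.87. With quantile normalization 601 were higher and 505 lower, so this split turned too, and with centring 131 and 346. The 830 calls fell to 441 to 521 without any 1 of the zygote replicates B, C and D. Of the 651 genes higher in NP at the second mitosis 15 (2.30%, and 17.9% of the 84) were also higher at the first, while 153 (23.5%, and 20.5% of the 746) were lower there. Of the 2227 lower at the second mitosis 84 (3.77%, and 11.3% of the 746) were lower at the first and 42 (1.89%, and 50% of the 84) were higher. When the 2 changes were tested against each other, 2201 genes (27.6%) differed, 910 (11.4%) with the higher value at the second mitosis and 1291 (16.2%) at the first. Under centring these were 2666 and 433, and with quantile normalization 732 and 915.

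Ribosomal proteins were the plainest case. In NP their median was 2.41 at the second mitosis and -2.22 at the first, where 2 of 80 were called higher and 37 lower, against 1.05% and 9.36% of all genes. The difference itself was called in 61 of 80 toward the second mitosis and in 1 toward the first, against 11.4% and 16.2% of all genes, with a median of 4.76. Rplp0 fell at the first (log2 fold change -1.87 ± 0.32, adjusted p = 0.0002) and rose at the second, and the difference passed (adjusted p = 8.4e-08). Dppa5a did the same (log2 fold change -2.61 ± 0.42, adjusted p = 0.00011 at the first), with a difference at adjusted p = 6.9e-09. Rpl41 was not called at the first (log2 fold change 0.16 ± 0.51, adjusted p = 0.92), and its changes differed too (adjusted p = 0.0012). Nucleolar factors had a median of -1.65 at the first, and 22 of 51 differed toward the second mitosis and 1 toward the first, against the same 11.4% and 16.2%. Maternal-effect genes had a median of -0.49 at the first, where 3 of 32 were higher and 4 lower, against 1.05% and 9.36% of all genes. Tcl1 rose at the first (log2 fold change 2.24 ± 0.56, adjusted p = 0.0099) and Omt2b rose as well (log2 fold change 2.73 ± 0.39, adjusted p = 2e-05), so both moved in opposite directions at the 2 mitoses (adjusted p = 5.5e-10 and adjusted p = 3.1e-09).

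Some genes moved the same way at both mitoses. Cdc20 rose at the first too (log2 fold change 1.86 ± 0.36, adjusted p = 0.00094), and the difference did not pass (adjusted p = 0.92). Nip7 rose there too (log2 fold change 2.18 ± 0.44, adjusted p = 0.0015), and Ooep (log2 fold change -3.72 ± 0.42, adjusted p = 7.4e-07) and Elobl (log2 fold change -3.46 ± 0.32, adjusted p = 2.2e-08) fell at both. Cks1b and Pttg1 rose at the first (log2 fold change 1.95 ± 0.36, adjusted p = 0.00067 and log2 fold change 1.13 ± 0.37, adjusted p = 0.047) and fell at the second, and the difference passed for both (adjusted p = 5.7e-08 and adjusted p = 9.7e-06). Both mitoses were entered under nocodazole by the study's methods, and the zygote libraries share no sample with the two-cell libraries. By those methods interphase zygotes were collected when they were isolated, whereas later embryos were cultured. Time in culture therefore cannot be told apart from M-phase at the first mitosis.

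Replicates of each group were only moderately alike. Over the genes tested, log2 values of 2 libraries of two-cell correlated at a Pearson r of 0.584 to 0.643, those of two-cell M at 0.622 to 0.691, and those of different groups at 0.467 to 0.514. They are taken over genes, and genes do not stand in for replicates. With 1 added to each FPKM the ranges were 0.767 to 0.838, 0.735 to 0.786 and 0.581 to 0.647. The first principal component of the 6 libraries held 38.5% of the variance and set the groups apart, and the second held 18.6%. The SE of a change had a median of 1.31 over the genes tested and ran from 0.225 to 3.48, so for the typical gene only large changes could be called. Farsa, an aminoacyl-tRNA synthetase subunit with an SE of 1.34, passed limma narrowly at a log2 fold change of 3.37 (adjusted p = 0.049).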

How the data were processed

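The authors separated lysates of oocytes and embryos on sucrose gradients, extracted RNA with Trizol, made libraries with SMART-seq v4, which primes on poly(A), and Nextera XT, trimmed reads with Trim Galore 0.4.1, mapped them to GRCm38 with STAR 2.5.3a and quantified genes in Partek. Transcripts without a poly(A) tail, such as most replication-dependent histone mRNAs, may therefore be underrepresented, which was not tested. They deposited 1 table of normalized FPKM for 23125 genes in 36 libraries, with 0.01 added to every value, and 2 labelled zygote samples have no column in it. Counts were not used here, and the implied depth per library was 8491000 to 26660000 fragments.

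Log2 of the deposited FPKM was fitted with limma 3.58.1 (R 4.3.3, trend, 12 group means) over the 7967 genes whose geometric mean reached 0.1 FPKM. Calls needed a Benjamini-Hochberg adjusted p under 0.05 and a log2 change beyond 1, two-sided. Differences between changes were tested as interaction contrasts in the same fit. Sums and counts per library were compared by exact permutation tests. Similar transcripts were found with blastn 2.17.0 on GENCODE release 21, and promoter windows come from RefSeq.

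Genes were named by rule. These were the 12 largest rises and 12 largest falls among called protein-coding genes without overlap and with a mean of at least 10 FPKM in one group, up to 4 non-coding ones in each direction by the same terms, genes that the study names, up to 4 called members of each list with the highest mean, the 5 highest protein-coding genes of each group, and the 4 largest differences from P in each direction. Not every gene picked by this rule is reported here. The genes and lists were chosen with earlier results of these data known. Gene lists were written by symbol. Alternatives were 0.1 or 1 added, other minimums, protein-coding genes only, quantile normalization, median centring, fits of fewer libraries, array weights, a replicate block and leaving out each library. Python 3.11.15, pandas 2.3.3 and numpy 2.4.6 were used.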

Additional observations from a re-analysis of the deposited data

Results flagged for a closer look

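Some genes changed by different amounts in NP and P at the second mitosis, tested as the change in NP minus the change in P. The value was above 0 for Rce1 (11.34), Btg2 (9.78), Mfsd10 (9.19) and Spint1 (8.08). It was below 0 for Gm5801 (-17.25), Bloc1s4 (-13.69), Hsp25-ps1 (-12.64) and Rab11b-ps2 (-12.57). Over all genes 458 differed in this way. With only the libraries compared and the gradient as replicate block, 0 did by limma (695 at an unadjusted p under 0.05). Gm5801 stood in NP at 2.31, 19.0 and 5.39 FPKM in two-cell and 0.850, 0.161 and 0.01 FPKM in two-cell M and in P at 0.01, 0.01 and 0.01 FPKM in two-cell and 29.3, 22.9 and 32.5 FPKM in two-cell M. Bloc1s4, of a complex for lysosome-related organelles, stood in NP at 21.5, 40.2 and 21.5 FPKM in two-cell and 0.01, 0.195 and 0.01 FPKM in two-cell M and in P at 4.001, 0.01 and 0.0511 FPKM in two-cell and 0.01, 35.2 and 14.2 FPKM in two-cell M. Hsp25-ps1 stood in P at 23.2, 47.6 and 16.9 FPKM in two-cell and 5.81, 11.6 and 20.3 FPKM in two-cell M and Rab11b-ps2 at 16.4, 21.5 and 5.44 FPKM in two-cell and 15.2, 24.9 and 62.7 FPKM in two-cell M, while in NP of two-cell M both were at or within rounding of a listed 0. Btg2, an antiproliferative p53 target, stood in NP at 0.01, 0.0673 and 5.20 FPKM in two-cell and 11.9, 14.7 and 16.2 FPKM in two-cell M and in P at 5.81, 2.60 and 1.68 FPKM in two-cell and 0.01, 0.537 and 5.64 FPKM in two-cell M, and its call in NP was lost without two-cell replicate A (adjusted p = 0.092). Mfsd10 rested on two-cell M replicate A in NP, at 0.01, 0.01 and 0.01 FPKM in two-cell and 51.0, 0.0760 and 0.0427 FPKM in two-cell M, and its call was lost without that library (adjusted p = 0.23). The call of Gm5801 in NP was lost without two-cell M replicate C (adjusted p = 0.053).

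Changes in NP at the second and the first mitosis also differed, for 2201 genes over all. The difference, second minus first, was 2.75 for Elob (elongin B) and 3.94 for Rpl35, a gene that the study names. Neither was called in NP at the second mitosis, Rpl35 fell at the first (log2 fold change -2.71 ± 0.62, adjusted p = 0.0046) and Elob was not called there (log2 fold change -1.30 ± 0.69, adjusted p = 0.27).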

How the results depend on the processing

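With 3 libraries in a group and a median SE of 1.31, small changes and genes under about 1 fragment per kb were not resolved. The 2878 genes called between two-cell M and two-cell in NP were 2540 to 2762 when each library was left out in turn, 2805 and 2258 with 0.1 and 1 added to each FPKM, 2021 with quantile normalization, 875 with only the libraries compared and 1173 with array weights. With only the libraries compared P had 1668 calls, the difference between NP and P 109 and that between the mitoses 1125. With array weights zygote M against zygote had 1319, the difference between NP and P 75 and that between the mitoses 1306. Centring gave 477 for zygote M against zygote and 1463 for the difference between NP and P. Zygote M against zygote had 403 with the 18 NP libraries alone and 441 to 833 with a library left out. The difference in the number of genes detected, two-cell M minus two-cell, was -1811 above 0.1 FPKM and -1040 above 1 FPKM. The rise in the share of ribosomal proteins was 3.59 percentage points of all FPKM and 9.98 of protein-coding FPKM, and the median r between groups was 0.493, or 0.608 with 1 added.

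The replicate letters do not pair the libraries by any label. Deviations of the same letter in two-cell and two-cell M had r of 0.006, 0.087 and 0.052, and replicate A was not closest to its own letter. The replicate block was fitted on only the libraries compared. In NP at the second mitosis 0 genes were then called by limma (1552 at an unadjusted p under 0.05). In P 0 were called (2626) and in NP at the first mitosis 0 (1473). The difference between NP and P had 69 and that between the mitoses 646. Without the block the same libraries gave 875, 1668, 840, 109 and 1125, in that order. Of the 151 named genes tested, the 139 that were called lost their call with the replicate block, and the other 12 were not called in either fit. With only the libraries compared and the gradient as replicate block, chosen after seeing the data, 0 differed between NP and P by limma (695 at an unadjusted p under 0.05).

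Of the 151 named genes, 123 kept their side of the threshold with quantile normalization, 139 with 1 added, 74 with only the libraries compared and 77 with array weights. Centring reversed 26, namely Ooep (0.98), Elobl (1.04), Mos (2.84), Eif1b (0.70), Eif3i (2.33), Sars (0.44), Psmb3 (1.01), Cox8a (1.90), Snrpf (1.47), Snrpa (0.16), Cks1b (0.83), Pttg1 (1.31), Birc5 (1.94), Aurka (1.67), Tuba1c (0.38), Cdt1 (0.84), H1foo (0.0016), Npm2 (1.76), Omt2b (0.39), Omt2a (0.80), Gdf9 (1.09), Cycs (0.19), Polr2c (1.75), Krt8 (1.598), Hist1h2ap (2.27) and Gm8186 (3.11). Centring sets each library's median to the same value, and that median lay near the floor in two-cell M. Mos ran from -3.58 to 1.29 with a library left out. Cdh1, near the floor throughout (0.05), was -0.34 with array weights and ran from -1.12 to 0.83 with a library left out, the cause of which was not tested.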
